A study of Mus musculus with 8 samples.

Results

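The 9 genes described here encode the adhesion molecules by which the vessel wall holds leukocytes: Selp, Sele, Vcam1, Icam1, Icam2, Alcam, Pecam1, Jam2 and Cd99l2. They were taken by symbol, and they are 9 of the 31053 genes counted. Their UMI counts (unique molecular identifiers, 1 per captured transcript) came from single cells of the brain cortex of mice aged 8 weeks in 4 groups, each a pool of 3 brains, perfused before dissection and freed of myelin after enzymatic digestion. The groups were Lama4-/- mice, their WT controls, Tek-Cre:Lama5-/- mice and a separate set of WT controls, with 2 labelled samples each. The series title asks how laminins of the vascular basement membrane bear on zonation of cerebral microvessels. Tek-Cre, used to delete Lama5, is active in endothelium and also in blood cell lineages, so deletion in that line need not be limited to vessels. The label Lama4-/- names no Cre. Both Lama4-/- samples held the same matrix and count as 1 library, which left 7 distinct libraries and no test for that knockout.

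Leukocytes leave the blood in steps. Selectins on the endothelium slow the cell, ligands of the immunoglobulin superfamily arrest it by binding its integrins, and molecules at the junctions between endothelial cells let it pass. In the resting brain this traffic is low and takes place mainly at venules beyond the capillaries, and inflammatory cytokines raise Selp, Sele, Vcam1 and Icam1 in endothelium through NF-kB. The leukocyte then meets the endothelial basement membrane, to which the laminin chains Lama4 and Lama5 belong.

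The libraries held 35479306 to 48314458 UMIs, and 47239 of 56961 barcodes were kept, of which 26305 fell in endothelial-like clusters (2213 to 4988 per library). All 9 endothelial markers fixed for naming (such as Cldn5, Flt1 and Cdh5) were met in 8 of the 9 endothelial clusters, and 7 of them in the remaining cluster of 20 cells. The median UMI count per kept cell ran from 2903.5 to 6540.5 and was lower in the Lama5 experiment. In endothelial-like cells Lama4 gave 922 and 827 UMIs in its WT libraries and 1 in the knockout. Lama5 stood at 41.3 and 40.3 CPM (counts per 1000000 UMIs) in its WT libraries and at 22.8 and 25 CPM in the knockout. The 3' tag need not lie in the deleted part of either gene, so a remaining level is no measure of intact transcript. All levels are CPM of the class, on TMM-scaled totals of each experiment for endothelial cells, pericytes, smooth muscle, astrocytes and microglia, and on unscaled totals for rarer classes. The design text says that 3 brains were pooled per group, and the labels do not say whether the samples of a group are separate preparations. The p-values therefore measure only the spread between these libraries, which may be technical. Intervals given for single libraries are for counting error.

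Endothelial cells were ranked within each library by a venous and by an arterial marker score, neither of which used any of the 9 genes. The upper 10% of each score are called venous-range and arterial-range cells (2619 cells each), and cells outside the upper 30% of both are called capillary-range (11541 cells). These are ranges of a score, not cell types: 2.39% to 3.66% of all endothelial cells of a library lay close to a cut, on either side. At the lowest share these were 119 cells beside 495 arterial-range cells (WT replicate 2 of the Lama5 experiment). At the highest they were 173 cells beside 469 venous-range cells (Lama5 knockout replicate 2). The zone markers followed the names by construction, with venous markers at 26.8 to 38.8 UMIs per 10000 in venous-range cells against 2.62 to 4.85 in capillary-range cells, and arterial markers at 51.6 to 94.4 in arterial-range cells against 0 to 2.38. Capillary markers remained at 37.8 to 50.2 UMIs per 10000 in venous-range cells, above the venous markers in 6 of 7 libraries, at 20.2 to 25.5 in arterial-range cells and at 70.7 to 102 in capillary-range cells. Venous-range and arterial-range cells were also deeper, with medians of 6619 to 14619 and 5571 to 13423 UMIs against 2131 to 4976 in capillary-range cells, so levels rather than detection are compared between zones.

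**Figure D1:**
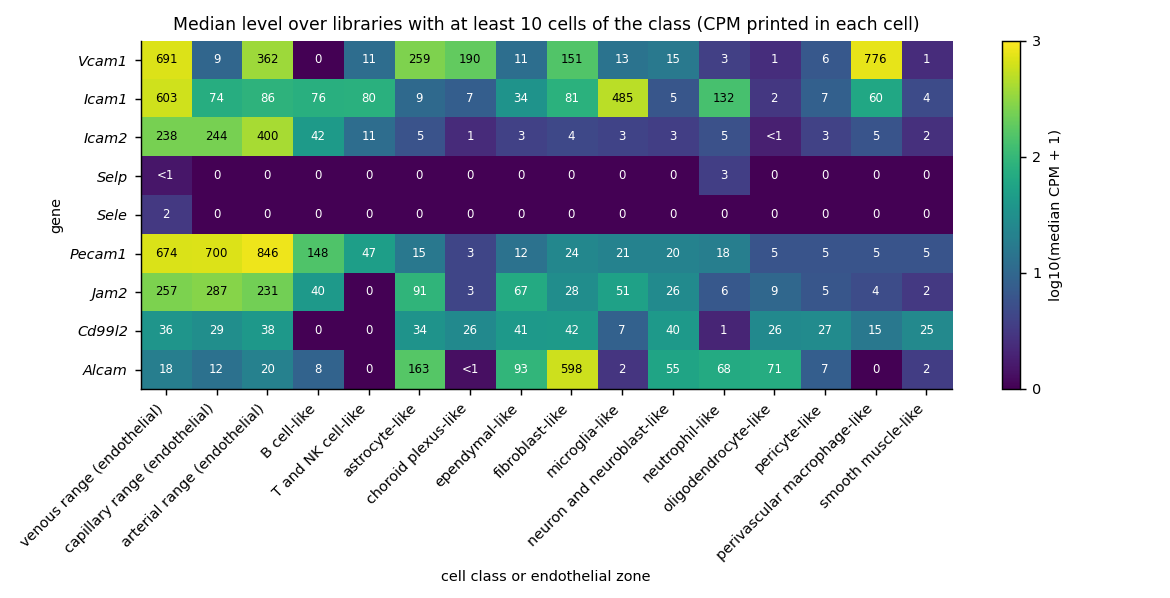
Heat map of the 9 genes (rows) over 3 endothelial zones and 13 other cell classes (columns); the number in each tile is the median CPM over the libraries with at least 10 cells of the class, and the colour is log10 of that median plus 1. Icam2, Pecam1 and Jam2 are highest in the endothelial columns, while Vcam1, Icam1 and Alcam also have high tiles outside the endothelium.

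The genes lie on 5 autosomes and the X chromosome. On GRCm38 (GENCODE M21), Vcam1 (ENSMUSG00000027962) spans chromosome 3 from 116109949 to 116129688 on the minus strand, and Icam1 (ENSMUSG00000037405) spans chromosome 9 from 21015985 to 21028817 on the plus strand. Selp (ENSMUSG00000026580) and Sele (ENSMUSG00000026582) are neighbours on the plus strand of chromosome 1, at 164115264 to 164150026 and 164048234 to 164057677. Icam2 (ENSMUSG00000001029) and Pecam1 (ENSMUSG00000020717) are both on the minus strand of chromosome 11, at 106377656 to 106388075 and 106654217 to 106750628. Jam2 (ENSMUSG00000053062) lies on chromosome 16 at 84774123 to 84825928, plus strand, and Alcam (ENSMUSG00000022636) on the same chromosome at 52248996 to 52454074, minus strand. Cd99l2 (ENSMUSG00000035776) lies on chromosome X at 71420060 to 71492849, minus strand. Vcam1, Icam1, Selp and Cd99l2 each overlap an antisense gene model. The counting strand is not given in the sources used here, so reads of such an antisense partner could not be separated. Jam2 overlaps Gm25908 on its own strand, a model that is not among the genes counted.

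Promoters are shown for the cytokine-inducible members, because NF-kB is the route given above. The RefSeq promoter table (GRCm38.p6) held 5 of the 9 genes: Icam1, Selp, Sele, Cd99l2 and Alcam. The loose NF-kB consensus was searched on both strands in the 250 bases before each start, and no other motif was searched. A match was present in 2 of the 5, at position -120 of Icam1 and -145 of Sele counted from the start, and in 7612 of all 32851 promoters (23.2%). It is a match of letters and not a mapped site. Only stretches that fit that pattern count as matches, so NF-kB sites with other letters would not be marked. The promoters of Icam1 (chr9:21015690-21015939, plus strand), Sele (chr1:164047984-164048233, plus strand) and Selp (chr1:164115014-164115263, plus strand) follow, 5′ to 3′, with the match in capitals.
Icam1: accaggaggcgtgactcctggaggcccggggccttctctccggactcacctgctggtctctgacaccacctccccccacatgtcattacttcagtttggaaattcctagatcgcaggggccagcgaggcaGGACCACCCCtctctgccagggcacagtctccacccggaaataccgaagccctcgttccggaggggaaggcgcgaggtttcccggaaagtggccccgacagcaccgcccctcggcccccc
Sele: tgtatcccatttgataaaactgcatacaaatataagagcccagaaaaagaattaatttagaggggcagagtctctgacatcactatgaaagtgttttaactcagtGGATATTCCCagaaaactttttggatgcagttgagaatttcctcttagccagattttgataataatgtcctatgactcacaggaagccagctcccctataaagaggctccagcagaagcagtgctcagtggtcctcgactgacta
Selp: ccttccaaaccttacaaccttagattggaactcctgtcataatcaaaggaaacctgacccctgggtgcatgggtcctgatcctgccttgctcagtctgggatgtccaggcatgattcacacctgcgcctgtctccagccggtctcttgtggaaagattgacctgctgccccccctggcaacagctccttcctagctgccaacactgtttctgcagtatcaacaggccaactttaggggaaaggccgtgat

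The selectins Sele and Selp, which tether rolling leukocytes, were nearly silent. Sele gave 146 UMIs in all cells, of which 144 were in endothelial-like cells and 135 in venous-range cells. By library, venous-range cells held 49 and 31 Sele UMIs in the WT of the Lama4 experiment, 37 in the Lama4 knockout, 8 and 0 in the WT to the Lama5 knockout, and 2 and 8 in that knockout. They came from 12, 10, 8, 4, 0, 2 and 6 cells in the same order. The Lama4 experiment thus held most of the Sele counts in WT and knockout alike. Capillary-range and arterial-range cells held 0 Sele UMIs in every library, which limits the share of capillary-range cells with a UMI to 0.137% to 0.320% and sets no limit on cells that hold the transcript. A single cluster led by Lrg1, Vwf and Ch25h held 118 of the Sele UMIs.

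Selp, which is stored in endothelial granules and in platelets, gave 46 UMIs, of which 34 were in endothelial-like cells, 29 of them venous-range, and 9 were in neutrophil-like cells. Venous-range cells held 16 and 4 Selp UMIs in the WT of the Lama4 experiment, 5 in the Lama4 knockout, 2 and 0 in the WT to the Lama5 knockout, and 0 and 2 in that knockout. These counts allow no statement on the knockouts for Selp. For Sele in venous-range cells, the ratio of knockout to WT counts was 1.5 (exact 95% interval 0.532 to 4.36) for Lama5 and 1.05 (0.693 to 1.57) for Lama4. Neither selectin passed the filter on low counts in the Lama5 comparison, so a change of several-fold was not detectable at this depth. Between the WT pools of the 2 experiments Sele differed by -3.46 (log2, Lama5 over Lama4 experiment, SE 0.566, edgeR's quasi-likelihood test, adjusted p = 0.000122), a call that DESeq2 did not make (adjusted p = 0.168). Without WT replicate 1 of the Lama5 experiment no Sele UMI is left on that side.

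Vcam1, the endothelial ligand of the integrin made of Itga4 and Itgb1, gave 35830 UMIs, and 82.03% of them were in endothelial-like cells. Its highest class median was in perivascular macrophage-like cells at 776 CPM (range over the 7 libraries 665 to 963). Venous-range endothelial cells followed at 691 CPM (453 to 781), a range that overlaps that of the macrophages. Arterial-range cells stood at 362.5 CPM (294 to 499.9), astrocyte-like cells at 259 CPM (195 to 271) and choroid plexus-like cells at 189.6 CPM (185 to 194 in 3 libraries). Fibroblast-like cells stood at 151 CPM (80.8 to 200.2), and all remaining classes at 15.4 CPM or less. Capillary-range cells were among these, at 8.66 CPM (5.04 to 12.97). Vcam1 was therefore high at both ends of the vascular tree and low between them: venous-range over capillary-range was 83.6-fold in the median library (50.2 to 115) and arterial-range over capillary-range was 45.6-fold (24.4 to 66.3). Venous-range over arterial-range was 1.73-fold (1.30 to 2.47), above 1 in 7 of 7 libraries. The capillary level rests on 30 to 65 UMIs per library. It lay under that of microglia-like cells (13.1 CPM) and above that of pericyte-like (5.73 CPM), oligodendrocyte-like (1.46 CPM) and smooth muscle-like cells (1.41 CPM). How much of it is background was not settled, so the folds over it are folds over a level that may be background. In cells sorted into 10 equal bins by the venous score, Vcam1 changed in a step: the uppermost bin held 462.5 to 766 CPM and the bin just under it 88.8 to 208 CPM.

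A Vcam1 UMI was found in 73.0% and 76.8% of venous-range cells in the WT of the Lama4 experiment and 67.8% in its knockout. In the Lama5 experiment it was 49.7% and 55.6% of them in the WT and 66.5% and 57.8% in the knockout. Thinned to 1500 UMIs per cell, which left out 2 to 9 cells per library, the shares were 41.5% and 43.4%, 38.6%, 26.7% and 29.3%, and 42.3% and 37.9%. The thinned shares of the Lama5 knockout lay above those of its WT. Microglia-like cells, which hold little Vcam1, had a UMI in 2.70% to 7.46% of cells (1.18% to 2.06% thinned), at median depths of 2798 to 7241 UMIs. In capillary-range cells the thinned share was 0.669% to 1.42%, below that of microglia in 7 of 7 libraries. Microglia are not the class lowest in Vcam1, so this does not settle whether the capillary share is background.

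**Figure D2:**
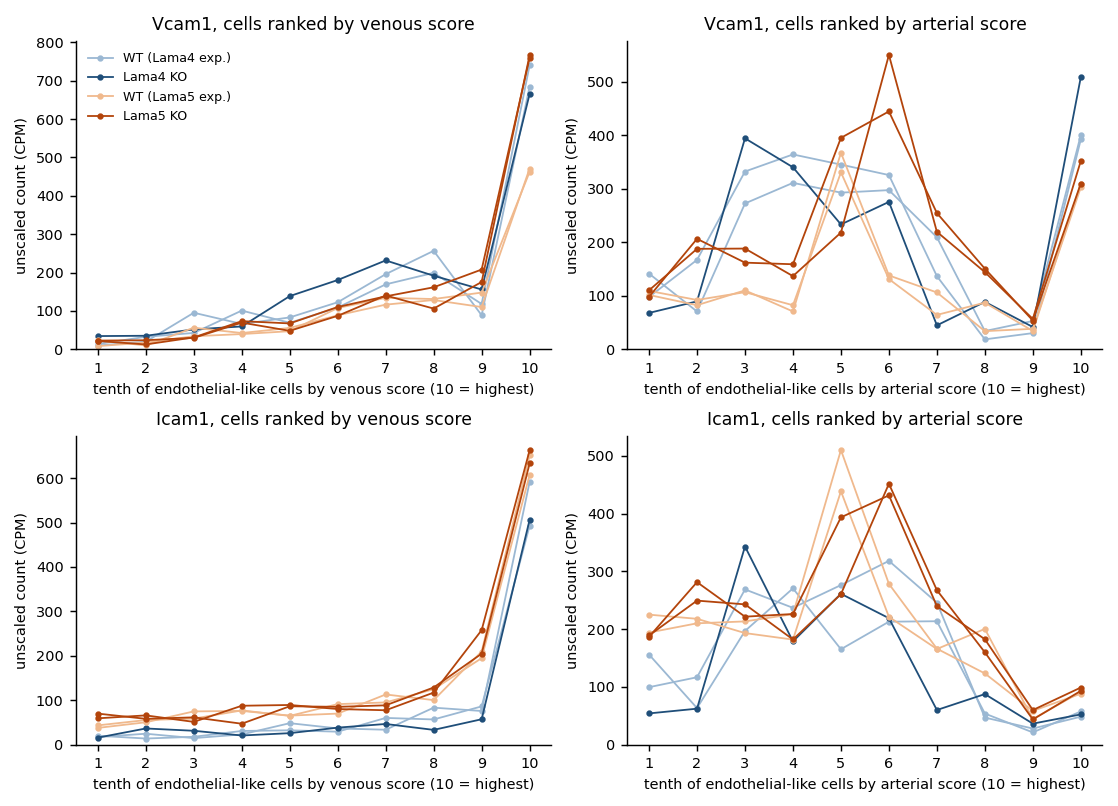
Level of Vcam1 (top) and Icam1 (bottom) in CPM on unscaled totals, for endothelial-like cells of each library sorted into 10 equal bins by the venous score (left) and by the arterial score (right); each line is a library and bin 10 holds the highest scores. Both genes climb steeply in the uppermost venous bin, Vcam1 also climbs in the uppermost arterial bin, and the Lama5 knockout lines of Vcam1 lie above their WT lines in the uppermost venous bin.

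Vcam1 rose in the Lama5 knockout. In all endothelial-like cells it stood at 159.7 and 159.6 CPM in the WT and at 254 and 262 CPM in the knockout. Every knockout library was above every WT library. The difference was 0.69 (log2, SE 0.0270, 1.62-fold, edgeR's quasi-likelihood test, adjusted p = 1.97e-18). It kept its call in every alternative run, between 0.56 and 0.78 on the log2 scale. Of the 9 members, 7 passed the filter and 2 were called (Vcam1 and Icam1), beside 19.2% of all genes tested in these cells. The median over the 7 members was 0.0071, beside -0.0021 over all genes tested. Choroid plexus markers moved with the comparison in these cells, with their summed level at 3.05 and 2.44 CPM in the WT and 90.2 and 82.0 CPM in the knockout, with 1 of the 6 markers at 0 in 1 WT library. Erythrocyte markers moved the other way, from 477 and 338 CPM to 88.2 and 90.6 CPM, with all 5 detected in each library. The part of either in the Vcam1 difference was not tested.

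In venous-range cells Vcam1 stood at 453 and 459 CPM in the WT and at 781 CPM in each knockout library. The groups did not overlap, and the difference was 0.77 (log2, SE 0.0387, 1.71-fold, adjusted p = 3.22e-14). Here 2 of 7 members were called (Vcam1 and Pecam1), against 7.71% of all genes. Without either knockout library the size stayed (0.77 and 0.78), but the adjusted p was 0.43 and 0.417, since no gene at all was called then by edgeR, with 1232 genes at an unadjusted p under 0.05. Endothelial-like cells with no UMI of 8 markers of other classes (among them Rgs5, Acta2, P2ry12, Ptprc and Aqp4) were also ranked on their own. Their zones, here and below, were drawn anew by the same cuts and are not subsets of the zones above. In their venous range Vcam1 stood at 428 and 399 CPM in the WT and 708 and 716 CPM in the knockout, a difference as large (0.78). This filter kept 1650 of 4968 and 1572 of 4988 endothelial-like cells in the WT. In the knockout it kept 1852 of 4653 and 1999 of 4732. Median depths of the cells kept were 3109 and 2911.5 UMIs in the WT and 2637 and 2440 UMIs in the knockout. The filter thus kept unlike shares in the Lama5 experiment, here and below. Astrocyte and perivascular macrophage markers, from the other classes with high Vcam1, were lower in venous-range cells of the knockout: astrocyte markers summed to 50.8 and 58.0 CPM after 85.3 and 84.2 CPM in the WT, and macrophage markers to 1.41 and 1.81 CPM after 3.00 and 2.81 CPM. Choroid plexus markers were higher, at 44.2 and 34.9 CPM after 4.07 and 5.83 CPM, with 1 to 4 of the 6 markers at 0 in each library. Erythrocyte markers were lower, at 36.2 and 49.2 CPM after 340.0 and 190.5 CPM, with 1 of the 5 markers at 0 in 3 of these 4 libraries. The part of these markers was not tested. A cluster made without the 9 genes and led by Il1r1, Wnt5a and Net1 held 58.0% of the venous-range cells. In that cluster, on unscaled totals, Vcam1 was at 383 and 389 CPM in the WT and 664 and 689 CPM in the knockout.

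In arterial-range cells Vcam1 stood at 302 and 294 CPM in the WT and at 316 and 362.5 CPM in the knockout. The knockout libraries lay above the WT libraries by little: the difference was 0.19 (log2, SE 0.0606, adjusted p = 0.0837), short of the threshold. Pericyte markers in these cells summed to 60.5 and 54.5 CPM in the WT and 112 and 76.6 CPM in the knockout, with 1 of the 8 at 0 in each library. An unnamed cluster with endothelial, pericyte and smooth muscle markers, left out of the endothelial cells, held 5 and 8 WT cells and 64 and 59 knockout cells. The part of either was not tested. No member of 7 was called there by edgeR (3 had an unadjusted p under 0.05, DESeq2 also called none), against 4.37% of all genes. Keeping doublets (0.24, adjusted p = 0.0109), a stricter cell filter (0.29, adjusted p = 0.000178), the replicate block (0.18, adjusted p = 0.035) and a common cut (0.20, adjusted p = 0.0244) each turned it into a call. In arterial-range cells with none of the 8 markers the direction turned (-0.19, adjusted p = 0.496), with 323 and 318 CPM in the WT and 230.1 and 329.7 CPM in the knockout. The cluster led by Fbln5, Gkn3 and Egfl8, of which 91.7% was arterial-range, stood at 457 and 467 CPM in the WT and 443 and 479 CPM in the knockout, and these overlap. It held 43.15% of the arterial-range cells. The cluster led by Rad54b, Edn3 and Gm9946 held 42.8% of them, with 21.24% of its own cells arterial-range. There Vcam1 stood at 52.3 and 71.6 CPM in the WT and 76.6 and 83.5 CPM in the knockout, without overlap. Totals of both clusters are unscaled.

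The difference between zones was itself tested, an addition made after the zone values had been seen. The Vcam1 effect was larger in venous-range than in arterial-range cells by 0.59 (log2, SE 0.0683, adjusted p = 5.1e-11). It remained a call in each alternative run, between 0.49 and 0.97, but DESeq2 was not run for this test. Of all genes, 0.263% were called in that test, and Vcam1 was the member among them. In capillary-range cells, where the share of cells with a UMI may be background, Vcam1 was low, with 33 and 35 UMIs in the WT and 65 and 53 in the knockout, that is 5.04 and 5.49 CPM against 12.96 and 11.2 CPM. Its difference of 1.20 (SE 0.212, adjusted p = 8.9e-05) was the 1 call among 7 members there, against 8.51% of all genes. It lost its call in cells with none of the 8 markers (1.25, adjusted p = 0.234), where the knockout libraries stood at 19.9 and 4.19 CPM and the WT at 3.88 and 6.27 CPM, and DESeq2 gave no adjusted p. Choroid plexus markers summed to 3.16 and 1.46 CPM in the WT and 139 and 121 CPM in the knockout in capillary-range cells, and their part was not tested. The venous effect did not differ from the capillary effect by the test (-0.43, SE 0.21, adjusted p = 0.712). No member was called in that test by edgeR (2 had an unadjusted p under 0.05, DESeq2 also called none), against 0.0705% of all genes.

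In the Lama4 knockout library Vcam1 stood at 244.5 CPM in endothelial-like cells, between its WT libraries at 256 and 242 CPM. Venous-range cells gave 651 CPM against 754 and 691 CPM, a ratio of summed counts of 0.899 (exact 95% interval 0.858 to 0.942). Arterial-range cells gave 499.9 CPM against 395 and 399 CPM, a ratio of 1.26 (1.18 to 1.34). The knockout library was thus below both WT libraries at the venous end and above both at the arterial end. Capillary-range cells gave 62 UMIs and 12.97 CPM, above 8.66 and 6.02 CPM, a ratio of 1.76 (1.24 to 2.49), all under 20 CPM. Within cells with none of the 8 markers, all endothelial-like cells gave 187 CPM in the knockout library and 138 and 131 CPM in the WT. In the venous range redrawn among them the order turned, with 523 CPM in the knockout library against 328 and 350 CPM. The redrawn arterial range kept its order, at 530.0 CPM against 455 and 320.1 CPM. In this experiment those cells numbered 886 of 2332 and 901 of 2213 in the WT and 1309 of 2419 in the knockout library. Their median depths were 5325 and 5208 UMIs in the WT and 4468 UMIs in the knockout library. The filter thus kept unlike shares of cells, and the 2 orders are of different sets of cells. Choroid plexus markers in endothelial-like cells summed to 157 and 101 CPM in the WT and 1020 CPM in the knockout library, with all 6 detected in each. Between the WT pools Vcam1 differed by -0.47 (log2, SE 0.0333, adjusted p = 2.4e-08). The pools, their depth and the experiment cannot be told apart.

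Icam1, the inducible ligand of the leukocyte integrins that contain Itgb2, gave 43688 UMIs, of which 58.19% were in endothelial-like cells and 38.57% in microglia-like cells. Venous-range cells had the highest class median, 603 CPM (491 to 676), followed by microglia-like cells at 485 CPM (409 to 573). The ranges overlap. Neutrophil-like cells stood at 132 CPM (47.2 to 256 in 6 libraries), arterial-range cells at 86.2 CPM (46.5 to 101) and capillary-range cells at 73.8 CPM (30.5 to 92.4). Icam1 differed from Vcam1 at the arterial end: venous-range over capillary-range was 8.85-fold (7.06 to 16.8), but arterial-range over capillary-range was 1.32-fold (1.04 to 1.53). The venous fold was larger in every library of the Lama4 experiment than in any of the Lama5 experiment. Capillary-range Icam1 averaged 33.2 CPM in the WT and 34.1 CPM in the knockout of the Lama4 experiment, and 74.4 and 84.4 CPM in those of the Lama5 experiment. Of venous-range cells with a Vcam1 UMI, 72.6% to 90.2% also had an Icam1 UMI, against 23.1% to 58.2% of the others, whose depth was lower (medians of 4522.5 to 8653 UMIs against 9570.5 to 20366).

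In endothelial-like cells Icam1 stood at 199.9 and 213 CPM in the WT to the Lama5 knockout, and at 244 and 228 CPM in that knockout. The groups did not overlap, and the difference was 0.20 (log2, SE 0.0309, 1.14-fold, adjusted p = 1.56e-05). Microglial markers in the same cells summed to 110 and 113 CPM in the WT and 140.2 and 145 CPM in the knockout, with all 8 detected in each library. In endothelial-like cells with none of the 8 markers of other classes, Icam1 stood at 183 and 204 CPM in the WT and 213 and 194 CPM in the knockout, which overlap (0.08, adjusted p = 0.407). By zone the Icam1 difference was 0.11 in venous-range cells (adjusted p = 0.12), 0.18 in capillary-range cells (adjusted p = 0.162) and 0.17 in arterial-range cells (adjusted p = 0.349). The venous difference was called under a stricter cell filter (0.17, adjusted p = 0.00698), a 20% cut (0.16, adjusted p = 0.00544) and a common cut (0.13, adjusted p = 0.0303). The capillary difference was called under a stricter cell filter, with doublets kept, with a common cut and without knockout replicate 1 (0.23 to 0.31, adjusted p = 0.00413 to 0.026).

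Outside the endothelium, Icam1 fell in microglia-like cells of the Lama5 knockout, from 549 and 573 CPM to 485 and 489 CPM. The difference was -0.20 (log2, SE 0.0488, edgeR adjusted p = 0.00348), and DESeq2 did not call it (adjusted p = 0.0586). It was the 1 call among 5 members tested there, against 13.7% of all genes. In smooth muscle-like cells Icam1 was scarce, with 4 and 1 UMIs in the WT and 16 and 15 in the knockout, that is 1.88 and 0.458 CPM against 8.70 and 8.56 CPM. The difference of 2.83 (SE 0.569, adjusted p = 0.000356) was the 1 call among 3 members tested, against 6.48% of all genes, and was lost without WT replicate 2 (2.17, adjusted p = 0.069), while without WT replicate 1 it was 4.05. Pecam1, an endothelial gene, moved beside it in these cells, from 4.69 and 5.96 CPM to 8.16 and 14.3 CPM (1.05, adjusted p = 0.0891). The part of RNA from other classes was not tested.

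In the Lama4 knockout library Icam1 gave 137 CPM in endothelial-like cells, just below both WT libraries at 174 and 142.5 CPM. The ratio of summed counts was 0.863 (0.822 to 0.905), while the WT libraries differed from each other by 0.285 (log2), more than the knockout library from their mean (-0.21). Venous-range cells gave 491 CPM, beside WT libraries at 603 and 491 CPM. In cells with none of the 8 markers the order turned, with 87.4 CPM in the knockout library against 55.5 and 65.5 CPM, and 363 CPM against 172 and 206 CPM in venous-range cells. Between the WT pools Icam1 differed by 0.55 (log2, SE 0.0625, adjusted p = 3.43e-06), higher in the Lama5 experiment, which is opposite to Vcam1.

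**Figure D3:**
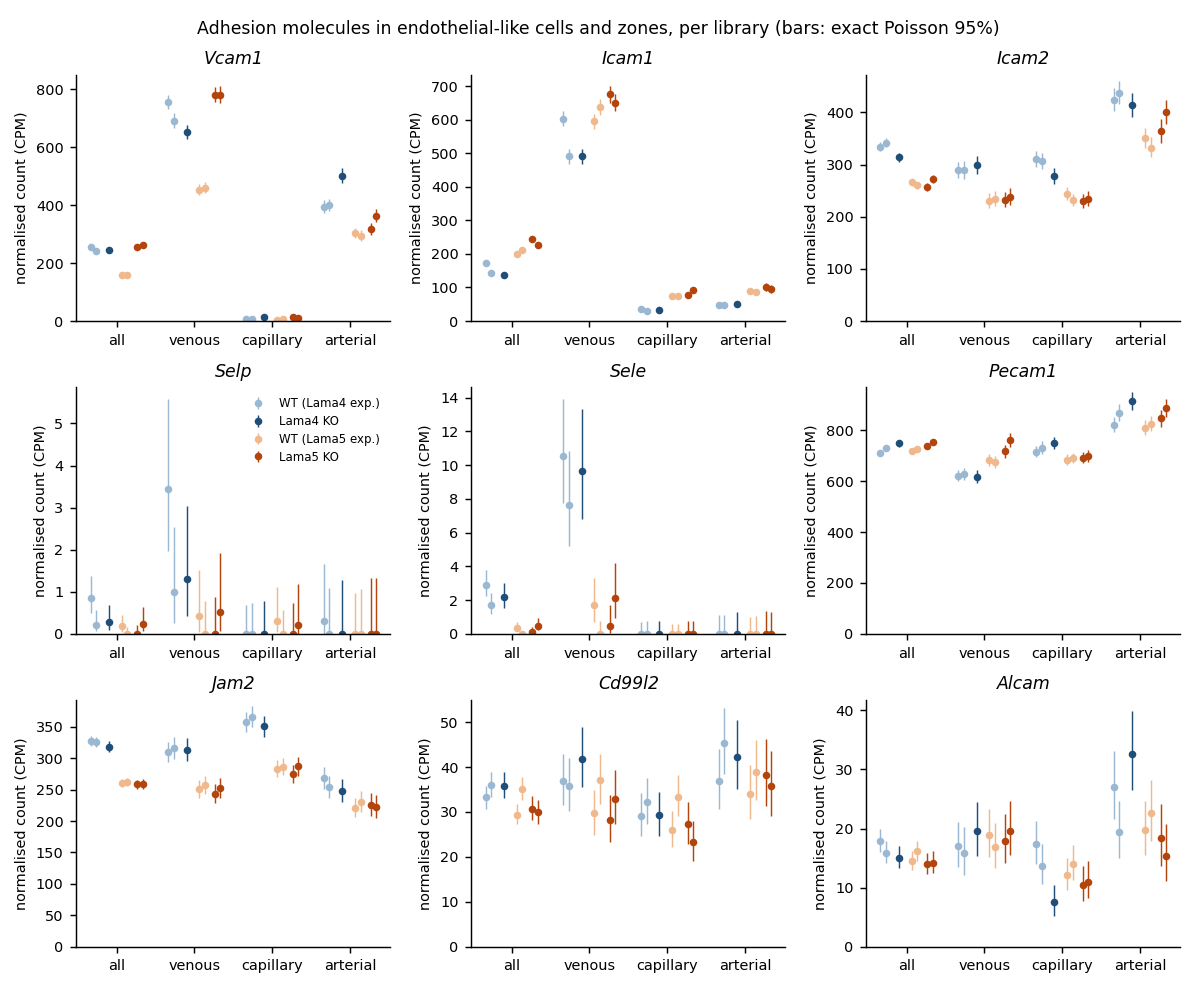
Level of each of the 9 genes in CPM (TMM-scaled) in all endothelial-like cells and in the 3 zones, 1 point per library, coloured by group, with exact Poisson 95% bars for counting error. The Lama5 knockout points of Vcam1 lie at 781 CPM in venous-range cells, above WT points at 453 and 459 CPM, while those of Jam2 and Icam2 lie beside their WT in venous-range and capillary-range cells.

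Icam2, a ligand of the integrin of Itgal and Itgb2 that resting endothelium carries, was almost purely endothelial: 97.49% of its 39698 UMIs were in endothelial-like cells. Its level was highest in arterial-range cells at 400.1 CPM (333 to 437). Capillary-range cells stood at 244 CPM (229 to 311) and venous-range cells at 238 CPM (231 to 298), and these overlap. Arterial-range over capillary-range was 1.44-fold (1.36 to 1.71), above 1 in 7 of 7 libraries. Across endothelial-like cells of the Lama5 experiment Icam2 stood at 266 and 260.4 CPM in the WT and 257 and 273 CPM in the knockout. These overlap, and the difference was 0.01 (log2, interval of 2 SE from -0.05 to 0.06, adjusted p = 0.9). In arterial-range cells the values were 351 and 333 CPM against 364 and 400.1 CPM, with the knockout above (0.16, SE 0.0559, adjusted p = 0.12). The Lama4 knockout library stood at 314 CPM in endothelial-like cells, below its WT libraries at 334 and 342 CPM, a ratio of 0.927 (0.898 to 0.958).

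Alcam, which binds Cd6 on T cells and also itself, was the least endothelial of the genes. Of its 7985 UMIs, 29.82% were in oligodendrocyte-like and 25.67% in endothelial-like cells, and its level was highest in fibroblast-like cells at 598 CPM (451 to 824). Astrocyte-like cells stood at 163 CPM (146.5 to 180.4), ependymal-like cells at 93.4 CPM and oligodendrocyte-like cells at 71.2 CPM, against 19.7 CPM in arterial-range, 17.9 CPM in venous-range and 12.1 CPM in capillary-range cells. Endothelial-like cells in the Lama5 experiment held it at 14.6 and 16.2 CPM in the WT and 13.9 and 14.2 CPM in the knockout, with a difference of -0.13 (SE 0.0872, adjusted p = 0.344). In cells with none of the 8 markers the difference was called, at 18.5 and 15.6 CPM against 10.2 and 13.7 CPM (-0.52, adjusted p = 0.029), and so it was in their arterial range (-1.30, adjusted p = 0.0428). In capillary-range cells of the Lama4 knockout library Alcam gave 36 UMIs against 92 and 68, that is 7.53 CPM against 17.3 and 13.6 CPM, a ratio of 0.484 (0.328 to 0.699). Arterial-range cells went the other way, with 32.7 CPM against 27.0 and 19.4 CPM, and there the WT libraries differed by 0.47 (log2), as much as the knockout library from their mean (0.49).

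Pecam1, the junctional molecule that leukocytes engage during passage, was endothelial for 96.86% of its 100148 UMIs. Arterial-range cells stood at 846 CPM (811 to 915), capillary-range cells at 700.0 CPM (685 to 749) and venous-range cells at 674 CPM (618 to 762), and the last 2 ranges overlap. Outside the endothelium B cell-like cells were highest, at 148 CPM (52.7 to 271). Across endothelial-like cells of the Lama5 experiment Pecam1 stood at 720.1 and 724 CPM in the WT and 737 and 754 CPM in the knockout, above without overlap but by 0.05 (log2, SE 0.0195, adjusted p = 0.104), with a call under the stricter cell filter (0.06, adjusted p = 0.0258). In venous-range cells it stood at 682 and 674 CPM in the WT and 718 and 762 CPM in the knockout, a call at 0.13 (SE 0.0392, 1.09-fold, adjusted p = 0.0465). That call was lost with DESeq2 (adjusted p = 0.189), with DESeq2 size factors (0.0524), with no filter (0.298), in cells with none of the 8 markers (0.802) and without any single library (0.172 to 0.456). The Lama4 knockout library stood at 748 CPM in endothelial-like cells against 711 and 729 CPM, above both, with a ratio of 1.04 (1.02 to 1.06).

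Jam2, a tight-junction molecule of the same family as F11r, was highest in capillary-range cells. Capillary-range cells stood at 287 CPM (274 to 366), venous-range cells at 257 CPM (243 to 315.5) and arterial-range cells at 231 CPM (221 to 268). These ranges overlap between libraries, but within each library the order held: venous-range over capillary-range was 0.883 (0.862 to 0.899) and arterial-range over capillary-range was 0.776 (0.693 to 0.824), below 1 in 7 of 7 libraries. Astrocyte-like cells, at 90.5 CPM (76.6 to 125.5), led the other classes. Across endothelial-like cells of the Lama5 experiment Jam2 stood at 261 and 262 CPM in the WT and 258 and 259 CPM in the knockout. The difference was -0.02 (log2, interval of 2 SE from -0.07 to 0.03, adjusted p = 0.714). The Lama4 knockout library stood at 318 CPM against 327 and 325.5 CPM, a ratio of 0.9752 (0.944 to 1.01).

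Cd99l2, which takes part in the late steps of passage, was spread over many classes at similar levels: fibroblast-like 42.3 CPM, ependymal-like 40.7 CPM, neuron and neuroblast-like 40.1 CPM, arterial-range 38.3 CPM, venous-range 35.8 CPM, astrocyte-like 33.9 CPM and capillary-range 29.2 CPM, with ranges that overlap. Within libraries arterial-range cells stood 1.40-fold (1.16 to 1.54) above capillary-range cells in 7 of 7. Endothelial-like cells in the Lama5 experiment held it at 29.4 and 35.1 CPM in the WT and 30.7 and 29.9 CPM in the knockout. The groups overlap, and the difference was -0.09 (SE 0.0691, adjusted p = 0.439). The WT libraries decided its size: without WT replicate 1 it was a call at -0.21 (adjusted p = 0.0337), and without WT replicate 2 it was 0.04. Cd99l2 stood at 35.8 CPM in the Lama4 knockout library, between its WT libraries at 33.3 and 36.0 CPM.

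In astrocyte-like cells of the Lama5 knockout, Vcam1 gave 259 and 195 CPM and its WT 259 and 210 CPM, and Alcam gave 163 and 178 CPM against 149 and 146.5 CPM. None of the 4 members tested there was called by edgeR (none had an unadjusted p under 0.05, DESeq2 also called none), against 0.523% of all genes. In pericyte-like cells Cd99l2 was the member that passed the filter (-0.59, SE 0.464, adjusted p = 0.715; DESeq2 also made no call), against 0.882% of all genes called. Vcam1 in microglia-like cells stood at 13.1 and 11.6 CPM against 14.5 and 11.3 CPM, which overlap.

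In endothelial-like cells and their zones of the Lama4 knockout library, no member at 20 CPM or more moved by 0.5 (log2) or more in either direction. This held for 6 members in endothelial-like cells, beside 1.53% of all genes at that level past this size, and for 6 in venous-range cells, beside 3.06%. It also held for 5 members in capillary-range cells, beside 2.49%, and for 7 in arterial-range cells, beside 2.8%. Between the WT libraries of that experiment 0.17%, 0.891%, 0.432% and 1.91% of genes differed by as much, in the same order of cell groups. In cells with none of the 8 markers Icam1 in endothelial-like cells (0.53) and Vcam1 and Icam1 in venous-range cells (0.62 and 0.94), and Alcam in arterial-range cells (0.55), were past that size. Outside the endothelium, Cd99l2 in astrocyte-like (0.592) and pericyte-like cells (0.546) and Pecam1 in astrocyte-like cells (-0.872) were past it too. So were 608 of 6970 genes in astrocyte-like and 1374 of 7322 in pericyte-like cells. The WT libraries differed from each other by -0.27, -0.817 and 3.03 for these members, in the same order. Between the WT pools, 6 of the 8 members tested were called: Vcam1, Icam2, Sele and Jam2 lower and Icam1 and Pecam1 higher in the Lama5 experiment. This stands beside 55.8% of all genes. The fit scaled both pools together, while the printed CPM are scaled within each experiment. On the printed CPM, Pecam1 in endothelial-like cells averaged 720.2 in the WT of the Lama4 and 722.2 in the WT of the Lama5 experiment. Each knockout was therefore set against its own WT alone.

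**Figure D4:**
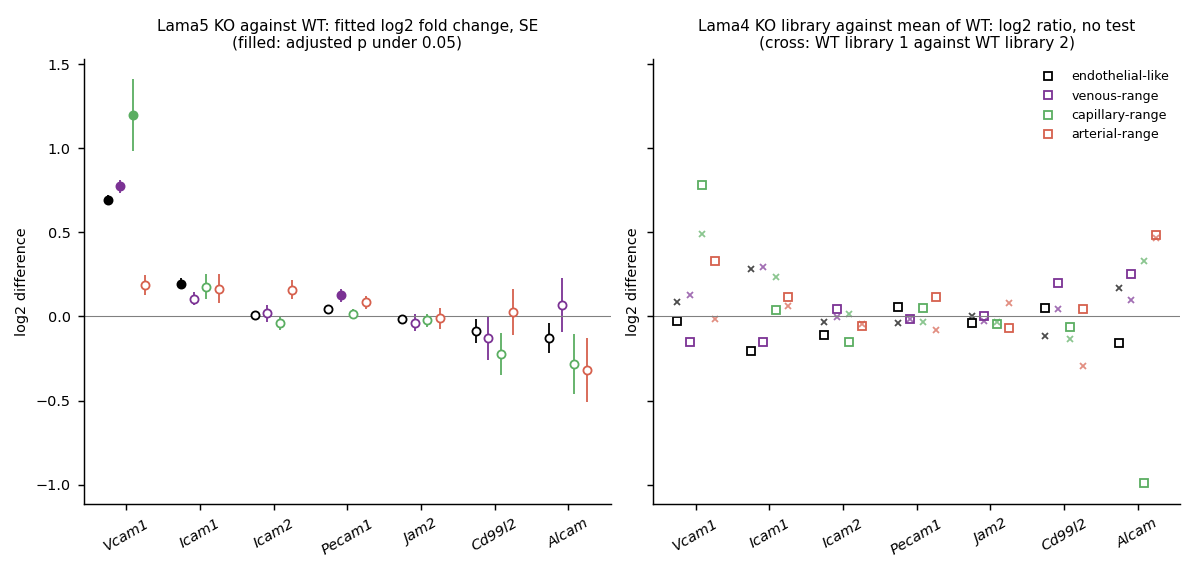
Log2 differences of the 7 genes that passed the filter, in all endothelial-like cells and in the 3 zones: fitted fold changes of the Lama5 knockout with SE, filled where adjusted p was under 0.05 (left), and log2 ratios of the single Lama4 knockout library to the mean of its WT libraries, with the log2 ratio of WT library 1 to WT library 2 as crosses (right). Vcam1 has 3 filled points on the left, at 0.69, 0.77 and 1.20, and on the right the square of Icam1 in endothelial-like cells lies at -0.21, beside a cross at 0.285.

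Genes that act with the 9 were read from the same fits, in lists chosen with earlier results of these data known. Of 22 other endothelial genes for contact with leukocytes, 21 were matched and 19 tested in endothelial-like cells of the Lama5 knockout, where 3 rose and 9 fell (median -0.07, beside -0.0021 over all genes and 19.2% of all genes called). The largest changes among them were all upward. Nectin2, which binds receptors of NK and T cells, stood at 12.6 and 13.1 CPM in the WT and 21.1 and 19.9 CPM in the knockout (0.68, adjusted p = 1.25e-07). Pvr, a related ligand, stood at 25.8 and 26.7 CPM and at 34.0 and 33.8 CPM (0.37, adjusted p = 2.65e-05). Cd9, a tetraspanin that clusters adhesion receptors, stood at 147 and 145.5 CPM and at 169 and 179 CPM (0.25, adjusted p = 2.4e-07). Nectin2 and Cd9 have their highest level in microglia-like cells, at 59.7 and 1220 CPM, whose markers also differed in these cells as given above. The 9 that fell did so by 0.07 to 0.21 and include Cd34, Emcn, Esam and Cd151, which coat the vessel lumen or its junctions.

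Of 14 chemokine and chemokine-presenting genes, 9 were tested, and 5 rose and 2 fell (median 0.43), beside 19.2% of all genes called. Ackr1, which carries chemokines across venular endothelium, stood at 2.29 and 0.512 CPM in the WT and 3.30 and 3.99 CPM in the knockout (1.35, adjusted p = 0.00143). Ccl2, a monocyte attractant, stood at 1.12 and 1.63 CPM and at 2.501 and 2.516 CPM (0.87, adjusted p = 0.0143), far under its 1836 CPM in perivascular macrophage-like cells. Cxcl1, a neutrophil attractant, stood at 43.4 and 42.4 CPM and at 68.8 and 69.5 CPM (0.69, adjusted p = 5.71e-13). Ackr1 reached 38.1 CPM in the Lama4 knockout library, above WT libraries at 19.8 and 12.3 CPM, the gene past 0.5 on the log2 scale (1.22) among the 6 of this list at 20 CPM or more.

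Of 23 genes of NF-kB and cytokine input, all were tested, and the 5 called all rose (median 0.07), a share near the 19.2% of all genes. Tnfaip3, an NF-kB target and inhibitor, stood at 32.1 and 33.5 CPM in the WT and 45.5 and 42.6 CPM in the knockout (0.43, adjusted p = 5.84e-07). Bcl3 (0.37, adjusted p = 0.00679) and Stat3 (0.30, adjusted p = 5.99e-09) also rose, as did Relb and Rela. Nfkbia, the most abundant gene of the list, stood at 2340 and 2347 CPM against 2387 and 2366 CPM and was not called (0.02, adjusted p = 0.478). None of the 15 genes at 20 CPM or more was past 0.5 in the Lama4 knockout library.

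A list of 15 genes, mostly linker and signalling genes of the cup around a bound leukocyte, also held Plvap. All 15 were tested, and 3 rose and 2 fell (median -0.01), beside 19.2% of all genes called. Plvap, a marker of fenestrated and venular endothelium, stood at 0.315 and 0.373 CPM in the WT and 2.67 and 2.45 CPM in the knockout (2.88, adjusted p = 8.41e-08). Rhog (-0.30, adjusted p = 0.00246) and Vasp (0.12, adjusted p = 0.0285) moved less. In the Lama4 knockout library Plvap reached 26.2 CPM against 9.86 and 3.78 CPM, and 12 of the 20 cells of the cluster led by Plvap, Esm1 and Btnl9 came from that library. That cluster held 1 Vcam1 UMI and 0 of either selectin. Plvap differed in the same direction as the choroid plexus markers in each knockout, and their part in it was not tested. Of the leukocyte ligands, 7 of 16 were tested in endothelial-like cells and 2 rose (median 0.03), beside 19.2% of all genes called: Itgam (1.21 and 1.07 CPM to 3.01 and 2.21 CPM, 1.19, adjusted p = 0.00113) and Itgb7 (0.629 and 0.373 CPM to 1.08 and 1.10 CPM, 1.11, adjusted p = 0.0425). Their levels were highest in microglia-like cells (433 CPM) and in T and NK cell-like cells (168 CPM). Of 8 genes that glycosylate selectin ligands, 5 were tested and none was called by edgeR's test in endothelial-like cells (2 had an unadjusted p under 0.05; DESeq2 was not read for this list).

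Genes with the most similar pattern were ranked by Pearson r of log2 levels centred per library over 21 points (3 zones in 7 libraries), among 6719 genes that are neither zone markers nor members. The points share libraries and the zone ranking, so r is a description. For Vcam1 they were H2-K1 (r = 0.995), Myof (0.993) and H2-Q7 (0.991). H2-K1, a class I antigen-presenting molecule, had means of 1224, 587 and 1129 CPM in venous-range, capillary-range and arterial-range cells. For Icam1 they were Usp53 (0.993), Clint1 (0.991) and Fkbp5 (0.989), of which Clint1 had means of 326, 67.8 and 72.0 CPM. For Icam2 they were Pmp22 (0.988), Pacsin2 (0.986) and Ssfa2 (0.984), and for Pecam1 Zfand5 (0.988), Sgms2 (0.969) and Jdp2 (0.968), all highest in arterial-range cells. For Jam2 they were Rgl1 (0.982), Sparcl1 (0.982) and Nid2 (0.978), all highest in capillary-range cells. Likeness was lower for Cd99l2, with Rps6ka3 (0.947), Cdc42ep5 (0.943) and Tap2 (0.924), and for Alcam, with Tbx1 (0.875), Mier3 (0.856) and Tapbpl (0.845).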

How the data were processed

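Per the labels' protocols, cortex was digested with papain, DNase and Liberase, and libraries were made with the Chromium 3' kit. Cell Ranger, Seurat 3.1 and mm10 are named in the submitters' processing notes, with no role given, and version 3.1.0 stands in the matrix headers. The authors deposited UMI counts for each gene and barcode, not normalised. The members and gene lists were chosen with earlier results of these data known.

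Cells with at least 500 genes and under 15% mitochondrial UMIs were kept (4352 and a further 2355 barcodes failed), and 3015 doublets were removed by a score against simulated doublets at 0.8% per 1000 cells. Libraries shared at most 20 barcodes among cells kept. Clustering used 2000 variable genes without the members, 30 principal components, 15 neighbours and the Leiden method at resolution 1 (leidenalg 0.10.2, igraph 0.11.9, scikit-learn 1.9.0), and gave 34 clusters. A cluster was named from at least 3 fixed markers in 25% of its cells at 2-fold of the median cluster. A rule set after seeing the clusters left those with markers of 2 classes unnamed, and 7 clusters (1609 cells) have no name. Names are rebuilt and may differ from the study's.

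Counts were summed per library and class. The Lama5 knockout was tested with edgeR 4.0.16 (R 4.3.3): quasi-likelihood F test, filterByExpr, TMM, adjusted p under 0.05 by Benjamini-Hochberg over all genes. All adjusted p-values are from this test unless DESeq2 1.42.0 is named. The script was checked on simulated counts. A class was tested where each of the 4 libraries held 50 cells or more. Lama4 log2 ratios used a pseudocount of 0.5 CPM. All 9 members are named, and of each list the up to 3 called genes of largest change. Further genes of the lists were named after their values were seen. Alternatives were other scaling, filters, DESeq2, left-out libraries, cell filters, zone cuts, thinning and a replicate block. Zones were drawn anew wherever a cell filter or kept doublets changed the cells. Of the gene IDs, 31011 (99.9%) matched GENCODE M21.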

Additional observations from a re-analysis of the deposited data

Results flagged for a closer look

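The Vcam1 difference in the Lama5 knockout was larger in venous-range than in arterial-range endothelial cells by 0.59 on the log2 scale, in a test of the difference itself that was added after the zone values had been seen.

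In endothelial-like cells or their zones, for 5 genes every library of the Lama5 knockout lay on one side of its WT libraries, while the Lama4 knockout library lay on the other side of its own. Of all genes with a mean of 20 CPM or more over the 7 libraries, 28.2% lay on opposite sides in this way in endothelial-like, 22.5% in venous-range, 20.2% in capillary-range and 18.9% in arterial-range cells, beside 1, 2, 0 and 2 of the 9 members at any level. This ordering was therefore common among all genes, and the members' counts are no result about them. The difference between the knockouts was not tested, and the Lama4 knockout has 1 library. Icam1 in endothelial-like cells differed by 0.194 in the Lama5 and -0.206 in the Lama4 knockout (log2 ratios of means). Vcam1 in venous-range cells differed by 0.775 and -0.149, and Pecam1 in venous-range cells by 0.126 and -0.0152. In arterial-range cells Icam2 differed by 0.16 and -0.0579, and Alcam by -0.323 and 0.487. In cells with none of the 8 markers of other classes, the Lama4 values of Icam1 in endothelial-like cells (0.53) and of Vcam1 in venous-range cells (0.62) had the opposite sign, and Pecam1 in venous-range cells lay between its WT libraries (624 CPM beside 611 and 627 CPM).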

How the results depend on the processing

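Of the alternatives for counts of calls and other summary values, 124 left the value within 1.5 times or the spread of libraries and 53 did not. In cells with none of the 8 markers of other classes, the genes called in the Lama5 knockout numbered 1060 in endothelial-like, 109 in venous-range, 249 in capillary-range and 123 in arterial-range cells, after 2528, 832, 954 and 449, with fewer cells summed. DESeq2 called 869, 261, 405 and 155, and in pericyte-like, smooth muscle-like and microglia-like cells and between WT pools it called 6, 157, 434 and 4543 (53, 625, 1314 and 7413 by edgeR). With no filter on low counts, where more genes are tested, 120 were called in venous-range, 481 in capillary-range, 204 in smooth muscle-like and 58 in astrocyte-like cells, the last after 36. A 20% cut gave 731 in arterial-range cells. Leaving out a library gave 0 to 604 calls in venous-range, 100 to 341 in arterial-range, 25 to 36 in pericyte-like, 357 to 467 in smooth muscle-like, 31 to 58 in astrocyte-like and 830 to 1064 in microglia-like cells. The venous minus capillary test called 8 genes, 3 without marker cells, 3 by DESeq2, 26 with doublets kept, 27 with no filter, 21 under the stricter cell filter, 25 with a 20% cut, 25 with a common cut and 8 to 30 without a library. The venous minus arterial test called 29 genes, 4 without marker cells, 15 with a 5% cut and 4 to 29 without a library. In the Lama4 knockout library, genes past 0.5 numbered 659 in venous-range, 315 in capillary-range and 672 in arterial-range cells without marker cells (201, 162 and 185 in all cells), 302 and 432 in venous-range and arterial-range cells with a 5% cut, and 244 to 299 in arterial-range cells without a WT library. The Vcam1 venous over capillary log2 ratio was 6.38, 5.69 without marker cells and 5.92 with a 20% cut. The Vcam1 share of endothelial-like cells was 2.58 points higher in the Lama5 knockout, 1.84 thinned to 1000 UMIs, 8.53 thinned to 3000 and 1.84 unthinned, at different depths. The following log2 differences turned sign. Alcam in venous-range cells (0.07) was -0.63 without marker cells, -0.049 under the stricter filter, -0.0073 with a 20% cut and -0.016 to 0.15 without a library. Cd99l2 in arterial-range cells (0.03) was -0.13, -0.018 and -0.084 in the same order, -0.0033 with a 5% cut and -0.072 to 0.12 without a library. Without a library, Cd99l2 was -0.21 to 0.043 in endothelial-like and -0.28 to 0.037 in venous-range cells. Icam2 in endothelial-like cells (0.01) was -0.0070 with no filter and -0.038 to 0.0501 without a library, and in venous-range cells (0.02) it was -0.0074, -0.0088, -0.0043 and -0.035 without marker cells, under the stricter filter and with a 20% and a 5% cut. Jam2 in arterial-range cells (-0.01) was 0.0026 under the stricter filter, 0.12 with a 5% cut and -0.044 to 0.020 without a library, and in capillary-range cells -0.054 to 0.0065 without a library. Pecam1 in capillary-range cells was -0.00063 with no filter, Vcam1 in arterial-range cells was -0.19 without marker cells, and Vcam1 in astrocyte-like cells was -0.26 to 0.145 without a library. None of these was called before a setting was changed, and the cause was not tested. Same-numbered libraries did not deviate together (correlations -0.0644 to 0.0152), and the replicate block called 2774 genes in endothelial-like, 1027 in venous-range and 82 in pericyte-like cells (2528, 832 and 53 without the block). Depth limits Sele, Selp and capillary Vcam1.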
